A study of Mus musculus with 6 samples.

Results

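The cytosolic heat shock genes were examined in choroid plexus of aged and young mice: the stress-inducible HSP70 pair Hspa1a and Hspa1b, their constitutive relative Hspa8, the co-chaperones Dnajb1 and Hsph1, the HSP90 genes Hsp90aa1 and Hsp90ab1, the small heat shock proteins Hspb1 and Hspb8, and the transcription factor Hsf1. The members were chosen by symbol in the authors' deposited table, where each of the 10 had 1 probe set among 25206. Aged mice of 20 to 22 months (n = 3) were set against young mice of 2 to 3 months (n = 3), all of them C57BL/6J, with 1 mouse to an array according to the labels. No treatment or genetic change is labelled in either group, and neither the sex of the animals nor a batch is given in the sources used here. Levels below are log2 expression values per probe set, differences are aged minus young on that scale, and a gene was called where limma's Benjamini-Hochberg adjusted p over all probe sets was under 0.05.

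Heat shock proteins keep other proteins folded. HSP70 proteins bind exposed hydrophobic stretches of a client in a cycle driven by ATP, J-domain proteins such as the product of Dnajb1 deliver clients and stimulate that cycle, and HSP110, encoded by Hsph1, exchanges the nucleotide. HSP90 proteins finish the folding of kinases and steroid receptors, and small heat shock proteins hold unfolded clients without ATP. When unfolded proteins accumulate, HSF1 forms trimers that bind heat shock elements, inverted repeats of GAA and TTC, and induces Hspa1a, Hspa1b and other members within minutes. The choroid plexus epithelium, which secretes cerebrospinal fluid, makes and exports large amounts of protein.

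Hspa1a and Hspa1b lie next to each other on chromosome 17, in the order Hspa1b, Hspa1a, Hspa1l, and their promoters are shown because the pair had the members' largest differences between aged and young. The sequences are RefSeq's (GRCm38.p6), the 250 bases before the start on the minus strand, chr17:34972157-34972406 for Hspa1a and chr17:34959239-34959488 for Hspa1b. Capitals mark the repeat GAANNTTC, which reads the same on both strands.
Hspa1a: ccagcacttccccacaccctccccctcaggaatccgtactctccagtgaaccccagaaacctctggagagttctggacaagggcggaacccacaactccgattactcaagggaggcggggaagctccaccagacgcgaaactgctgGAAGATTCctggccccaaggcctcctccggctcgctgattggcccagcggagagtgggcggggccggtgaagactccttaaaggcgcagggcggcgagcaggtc
Hspa1b: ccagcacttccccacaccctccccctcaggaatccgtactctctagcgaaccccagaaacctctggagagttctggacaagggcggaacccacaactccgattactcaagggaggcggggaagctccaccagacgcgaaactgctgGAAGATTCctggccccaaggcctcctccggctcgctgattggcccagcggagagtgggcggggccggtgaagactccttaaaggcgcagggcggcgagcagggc
Over these 250 bases 98.8% were equal, with 3 substitutions, C44T, T47C and T249G, given as the base of Hspa1a, the position counted from 1 at the 5′ end, and the base of Hspa1b. The repeat stood from -104 to -97 in both.

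Promoter windows of 300 bases, 250 before and 50 after the start, were matched for 6 of the 10 members: Hspa1a, Hspa1b, Hsph1, Dnajb1, Hspb1 and Hspb8. Hspa8, Hsp90aa1, Hsp90ab1 and Hsf1 had no entry. One or both of the forms GAANNTTC and TTCNNGAA, which overlap in a run of 3 units, occurred in 5 of these 6 members. Among all 32851 windows 15.1% held at least 1 of the forms. The run of 3 units, TTCNNGAA followed by NNTTC or the reverse complement of that run, occurred in Hsph1 alone of these members and in 0.603% of all windows. Neither window of Dnajb1 held either form, which says only that these letters are absent there. The matched stretches outside the HSP70 pair are shown with the repeats in capitals, to compare their spacing. They come from chr5:135887792-135887839 (plus strand) for Hspb1, chr5:116422845-116422872 (minus) for Hspb8, chr5:149636352-149636379 (minus) for the pair of units before the start of Hsph1, and chr5:149636287-149636310 (minus) for the run of 3 units after it.
Hspb1, -127 to -80: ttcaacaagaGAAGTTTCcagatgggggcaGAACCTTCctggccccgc
Hspb8, -8 to 20: gaagccaggaGAAGTTTCtaggctcgcg
Hsph1, -43 to -16: ggtagaatctTTCTCGAAggctcgagaa
Hsph1, 27 to 50: atgctgcagaTTCTGGAAAGTTCt
Hsph1 had a second annotated start with the same repeats at other distances. A match is a description of letters and not a measured binding site.

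Array medians lay between 4.03 and 4.09, and correlations between arrays ran from 0.982 to 0.990. Markers of the choroid plexus epithelium fit the labelled tissue: the mean of 15 such genes ran from 10.91 to 10.98 in aged mice and from 10.73 to 11.03 in young mice. The brightest probe set on young replicate 1 stood at 12.1, against 13.3 on the other arrays, so the scale ended lower there. Olfactory and vomeronasal receptors, 1350 probe sets of genes this tissue is not known to use, served as a guide to background and had a 95th percentile of 3.46.

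None of the 10 genes was called higher or lower in the aged tissue (limma adjusted p between 0.399 and 0.998), where over all probe sets 0.0595% were called higher and 0.0198% lower. Before adjustment, at a p under 0.05, 0 members were higher and 2 were lower, Hspa1a and Hspa1b, against 3.82% higher and 3.96% lower over all probe sets. The 3 aged values lay below the 3 young ones in 2 members, Hspa1a and Hsp90ab1, and above them in 0. Over all probe sets 6.93% lay below without overlap and 6.69% above. Without young replicate 3 the count below was 5, with Hspa1b, Hsph1 and Dnajb1 added, where 14.8% of all probe sets lay below, and without aged replicate 1 it was 4, with Hspa1b and Hspb1 added, where 11.9% did. The differences ran from -0.91 to 0.10 with a median of -0.066, 4 above 0 and 6 below, beside a median of -0.0018 over all probe sets. Bulk RNA cannot tell fewer cells of a type from less RNA per cell.

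**Figure D1:**
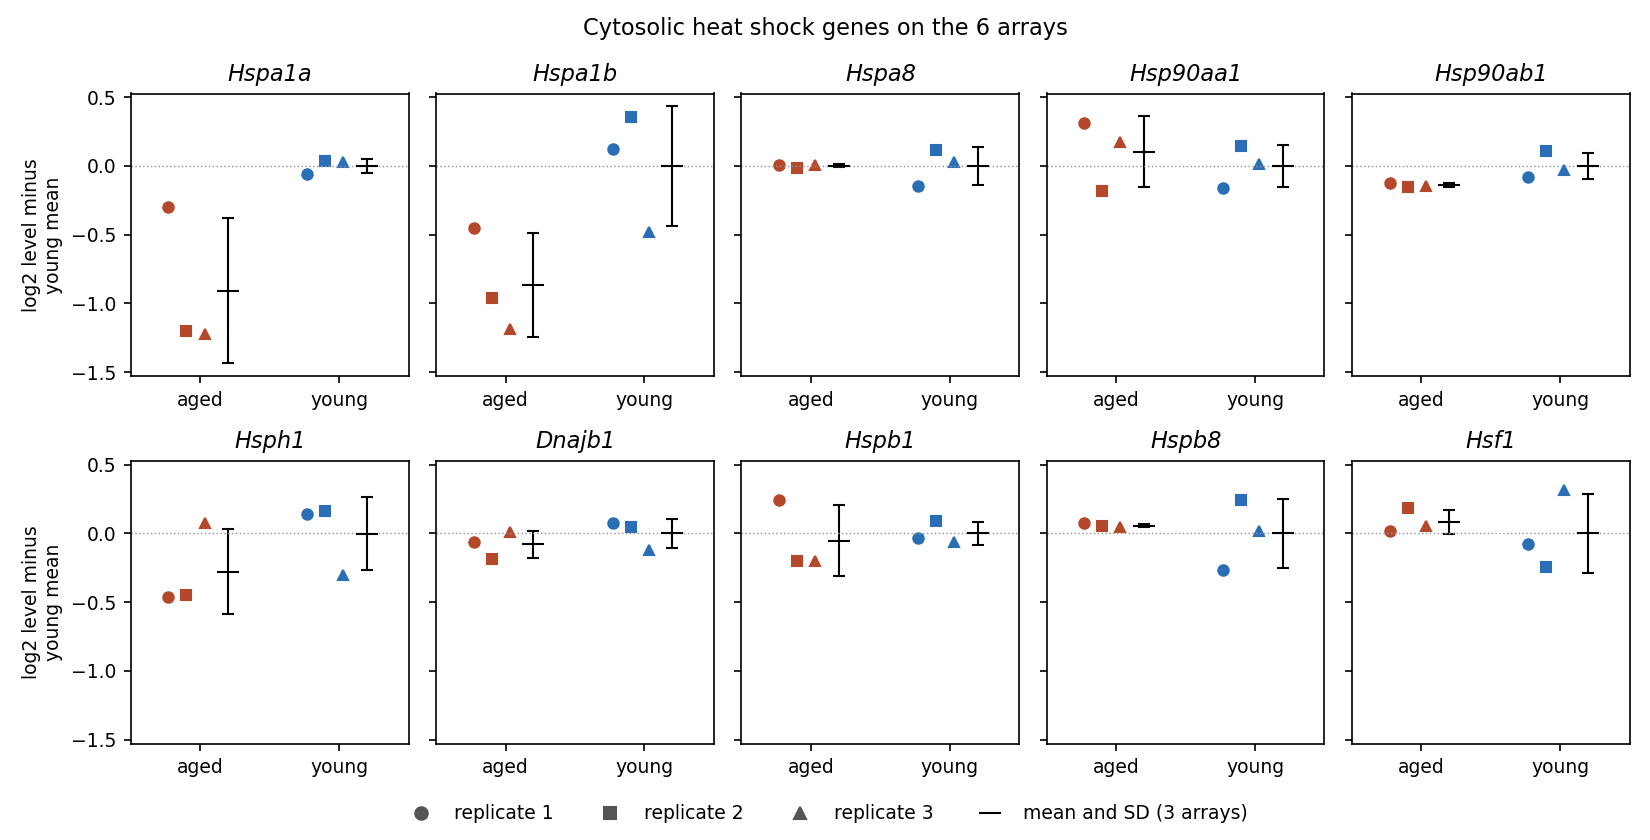
Log2 level of each of the 10 genes on each array, less that gene's young mean, for aged (left in each panel) and young arrays. Symbols mark replicates, and bars give the mean and SD over 3 arrays. The aged values of Hspa1a and Hspa1b lie farthest below the young mean on aged replicates 2 and 3, and Hsph1 has the widest spread of the other 8 genes.

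Hspa1a, the stress-inducible HSP70 (probe set 193740_at), read 6.58, 5.68 and 5.65 in aged replicates 1 to 3, against 6.82, 6.91 and 6.91 in young replicates 1 to 3. All aged values lay below all young ones, but aged replicate 1 was closer to the young arrays than to the other aged ones. The young values were tight, with an SD of 0.053, and the aged ones were spread, with an SD of 0.53. The difference was -0.91 (95% interval -1.46 to -0.36), a level 1.88-fold lower in aged mice, and it was not called (limma unadjusted p = 0.00540, adjusted p = 0.399). With aged replicate 1 left out, the difference was -1.21 and Hspa1a was called (limma adjusted p = 0.0168). In that fit 0.107% of probe sets were called higher and 0.0992% lower. With any other array left out the adjusted p lay between 0.50 and 0.754.

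Hspa1b, which encodes a nearly identical protein (15511_at), read 4.56, 4.05 and 3.83 in aged mice, against 5.14, 5.38 and 4.53 in young mice. The groups met at their edges, since aged replicate 1 stood just above young replicate 3. The values of aged replicates 2 and 3 lay below their array medians of 4.08 and 4.05, though above the background guide of 3.46. Its difference was -0.87 (95% interval -1.46 to -0.28), a level 1.82-fold lower in aged mice (limma unadjusted p = 0.00958, adjusted p = 0.463). Leaving out 1 array moved it between -1.11 and -0.69, without a call. Over a filtered subset of probe sets, Hspa1a had a q-value of 0.250 and Hspa1b one of 0.303 in the authors' deposited table.

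**Figure D2:**
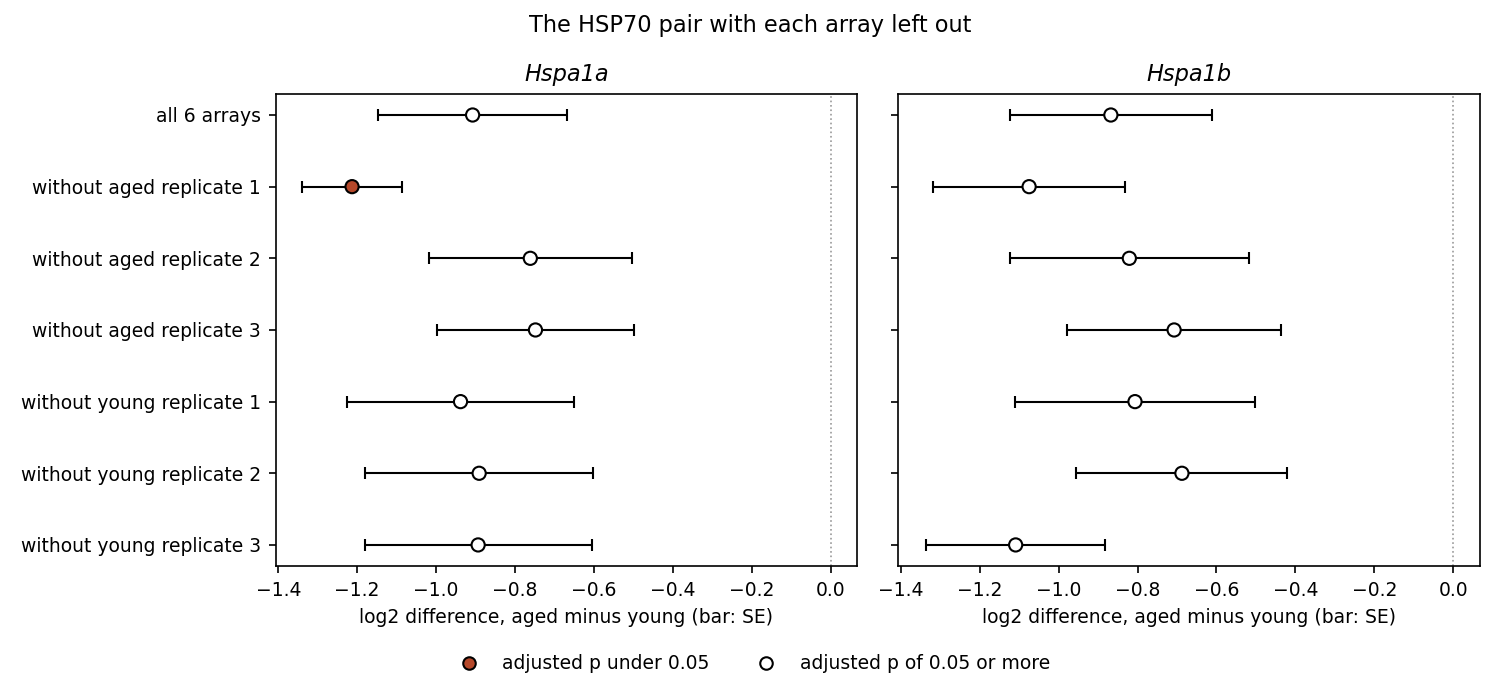
Log2 difference, aged minus young, of Hspa1a and Hspa1b with all 6 arrays and with each array left out. Points are limma estimates, bars are their standard errors, and a filled point has an adjusted p under 0.05. Each estimate lies below 0, and 1 point is filled, Hspa1a without aged replicate 1 at -1.21.

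Probe sets of such close copies can share sequence, and how the authors' annotation split the pair is not given in the sources used here, so the 2 results may not be independent of each other. The probe sets did not move in lockstep. The log2 ratio of Hspa1a over Hspa1b within an array was 2.02, 1.62 and 1.82 in aged mice, against 1.68, 1.54 and 2.37 in young mice. The groups overlapped, and the ratio differed by -0.040 between them (two-sided exact permutation test, n = 3 each, p = 0.9). With 20 arrangements the smallest p this test can give is 0.1, so it cannot show that the ratio was the same at both ages.

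Hspa8, the constitutive HSP70 that also uncoats clathrin vesicles (15481_at), read 11.74, 11.72 and 11.74 in aged mice, against 11.58, 11.85 and 11.75 in young mice. Its aged values sat inside the young range. The difference was 0.0020 (95% interval -0.26 to 0.26), from 1.19-fold lower to 1.20-fold higher (limma adjusted p = 0.998). The probe set was brighter than 99.9% of all probe sets or more on each array, and array signals can saturate at high brightness. The scale reached higher, to 12.1 on young replicate 1 and 13.3 on the other arrays, and saturation was not tested. The lowest value of Hspa8, on young replicate 1, fell on the array whose scale ended lower, and without that array the difference was -0.071.

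The co-chaperones of HSP70 had differences closer to 0. Hsph1, the HSP110 nucleotide exchange factor (15505_at), read 8.45, 8.47 and 8.99 in aged mice, against 9.06, 9.08 and 8.61 in young mice. In each group 2 arrays were close together and replicate 3 crossed into the range of the other group. The difference was -0.28 (95% interval -0.72 to 0.17; limma adjusted p = 0.781). Without aged replicate 3 it was -0.45 (limma unadjusted p = 0.0343) and without young replicate 3 -0.43, neither of them called. Dnajb1, the J-domain protein induced with HSP70 (81489_at), read 6.89, 6.77 and 6.97 in aged mice, against 7.04, 7.004 and 6.84 in young mice. The groups overlapped, and the difference was -0.080 (95% interval -0.34 to 0.18; limma adjusted p = 0.904). Leaving out 1 array moved it between -0.14, without young replicate 3, and -0.026, without aged replicate 2.

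Hsp90ab1, the constitutive cytosolic HSP90 (15516_at), read 8.82, 8.79 and 8.80 in aged mice, against 8.87, 9.05 and 8.91 in young mice. The aged values were tight, with an SD of 0.016, and all lay below the young ones by a small margin. The difference was -0.14 (95% interval -0.38 to 0.10), which holds a level up to 1.30-fold lower (limma adjusted p = 0.791), and it was -0.087 without young replicate 2. Hsp90aa1, the inducible HSP90 (15519_at), read 3.34, 2.84 and 3.20 in aged mice, against 2.86, 3.16 and 3.03 in young mice. These values overlapped and all lay under the background guide of 3.46, so nothing is read from its difference of 0.10. The gene is abundant in most tissues, and whether this probe set reports it was not tested, so the values do not show that the gene is silent.

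Hspb1, a small heat shock protein that binds unfolded clients and actin (15507_at), read 5.11, 4.66 and 4.66 in aged mice, against 4.83, 4.95 and 4.80 in young mice. Aged replicate 1 was the highest of all 6 arrays, and the other aged values were the lowest. The difference was -0.052 (95% interval -0.39 to 0.29; limma adjusted p = 0.959). Hspb8, which works with the co-chaperone BAG3 in clearing misfolded proteins by autophagy (80888_at), read 8.42, 8.39 and 8.39 in aged mice, against 8.08, 8.58 and 8.36 in young mice. Its aged arrays were alike and sat inside the young range, with a difference of 0.057 and limits of -0.27 and 0.39 at 95% (limma adjusted p = 0.95).

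Hsf1, the factor that induces this set under stress (15499_at), read 6.86, 7.03 and 6.90 in aged mice, against 6.77, 6.60 and 7.16 in young mice. The young arrays enclosed the aged ones, and the difference was 0.087 (95% interval -0.28 to 0.45; limma adjusted p = 0.927). HSF1 is controlled largely by trimer formation and modification of the protein, which a transcript level does not show.

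**Figure D3:**
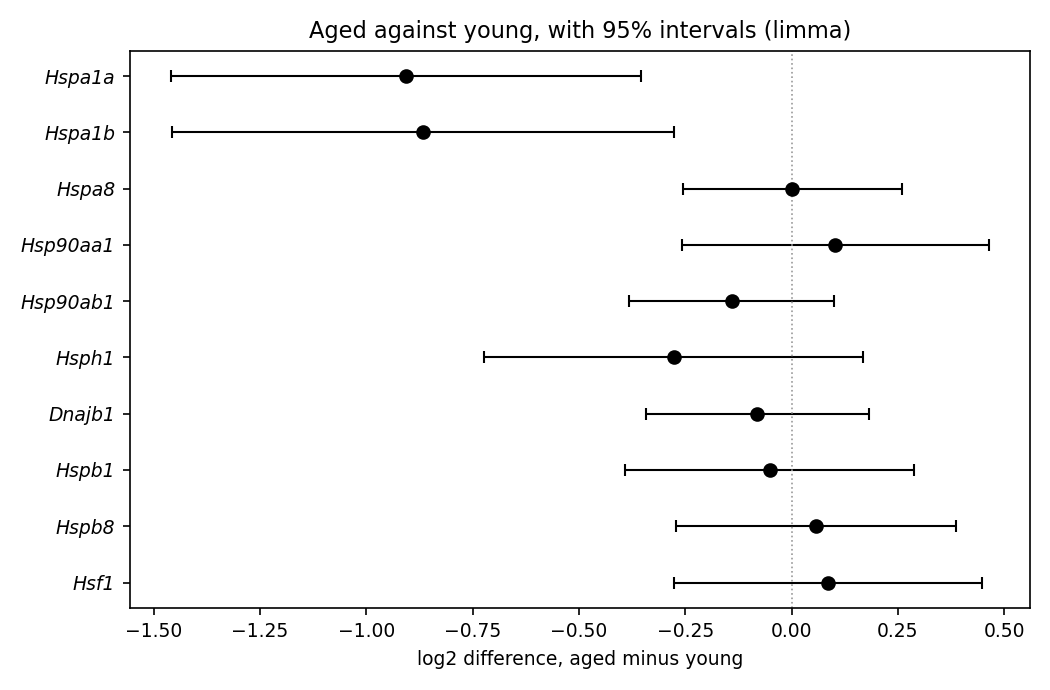
Log2 difference, aged minus young, of the 10 genes (points) with 95% intervals from limma (bars), ordered by family. The intervals of Hspa1a and Hspa1b lie below 0, while those of the other 8 genes span it.

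The members also differed in how far mice of one age varied. The SD within a group, pooled over both ages, was 0.38 for Hspa1a and 0.41 for Hspa1b, larger than that of 92.9% and 94.2% of all probe sets. For Hspa1a the spread lay in the aged mice, with an SD of 0.53 against 0.053 in young mice. For Hspa1b the SDs were 0.38 in aged and 0.43 in young mice. Hsph1 followed with a pooled SD of 0.29. Hsp90ab1, Hspa8 and Dnajb1 lay at the other end, with SDs of 0.069, 0.096 and 0.10, beside a median of 0.17 over all probe sets.

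Related chaperones, their cofactors and other heat-inducible genes were described through lists drawn up for this purpose, 87 genes of which 86 were measured, 8 of them under the background guide. None was called (limma). Before adjustment 4 were higher and 10 lower at p under 0.05, which is 4.65% and 11.6% of the measured genes, beside the 3.82% and 3.96% over all probe sets. With 1 array left out the lower count ran from 5, without aged replicate 2, to 13, without young replicate 3, where 3.27% and 4.76% of all probe sets were lower, and without young replicate 1 or 2 it was 6. The higher count ran from 1, also without aged replicate 2, to 5. The median difference was -0.086, with 26 above 0 and 60 below. Groups did not overlap in 6 genes above and 17 below, which is 6.98% and 19.8% of the measured genes, beside the 6.69% and 6.93% over all probe sets. The genes share regulators and were not sampled independently, so these shares describe the lists and were not tested.

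Co-chaperones of HSP90 had a median difference of -0.19, with 3 of 15 genes above 0 and 12 below, 0 called and 3 lower at p under 0.05 before adjustment. Chordc1, a zinc-binding HSP90 partner that is itself heat-inducible, read 7.40, 7.05 and 7.35 in aged mice, against 8.04, 7.82 and 7.47 in young mice (difference -0.51, limma adjusted p = 0.527). Cacybp, which links HSP90 and ubiquitin ligases, read 7.61, 7.31 and 7.58 in aged mice, against 8.003, 7.99 and 7.70 in young mice (difference -0.40, limma adjusted p = 0.541). For both genes the aged values lay below the young ones without overlap, as in 4 of the 15 genes (26.7%), beside 6.93% over all probe sets. The third was Ahsa2, a relative of the HSP90 ATPase activator, at -0.40. Without aged replicate 2 the count was 0, and without young replicate 1 or 2 it was 1. The TRiC chaperonin and prefoldin, which fold actin and tubulin, had a median of -0.18, with 1 of 14 genes above 0 and 13 below, 0 called and 3 lower at p under 0.05 before adjustment. The prefoldin subunits Pfdn4 and Pfdn2 had the smallest p, with means of 4.95 ± 0.22 and 5.89 ± 0.27 in aged mice, against 5.46 ± 0.28 and 6.30 ± 0.10 in young mice (SD, n = 3 each, limma adjusted p = 0.536 and 0.576). The third was Pfdn1, at -0.28, and like Ahsa2 it was named after its values were seen. Without aged replicate 2 the count was 1, with Pfdn2 at -0.26 (limma unadjusted p = 0.0719) and Pfdn4 at -0.38 (limma unadjusted p = 0.0669), and without young replicate 1 or 2 it was also 1.

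The other cytosolic HSP70 and HSP110 genes had 7 of 7 differences below 0, from -0.31 to -0.055, with 0 called and 0 at p under 0.05 before adjustment. Hspa14, a ribosome-associated HSP70, averaged 5.55 ± 0.092 in aged mice and 5.86 ± 0.21 in young mice, and Hspa2, a relative best known from male germ cells, averaged 5.90 ± 0.18 in aged mice and 6.20 ± 0.20 in young mice (SD, n = 3 each). Among 12 J-domain proteins 1 was higher and 1 lower at p under 0.05 before adjustment. They were Dnajc6, the neuronal clathrin-uncoating auxilin, at 0.34, and Dnajb4, a relative of Dnajb1, at -0.27 (limma adjusted p = 0.576 and 0.634). Among the 9 BAG proteins and other HSP70 cofactors Bag3, the heat-inducible partner of Hspb8, read 6.63, 6.82 and 6.62 in aged mice, against 6.50, 6.38 and 6.22 in young mice (difference 0.32, limma adjusted p = 0.576). Bag3 lay above the young arrays in all 3 aged mice, the 1 gene of this list to do so (11.1%), beside 6.69% over all probe sets. Leaving out 1 array moved the Bag3 difference between 0.25 and 0.39, with limma unadjusted p between 0.0213 and 0.0965. St13, an HSP70 cofactor, differed by -0.24.

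Among 7 other heat shock factors and their regulators 3 differences lay above 0 and 4 below, with a median of -0.058. The 2 with the smallest p differed in opposite directions. Hsf2, which forms mixed trimers with HSF1, read 5.48, 5.26 and 5.48 in aged mice, against 5.91, 5.70 and 5.84 in young mice (difference -0.41, limma adjusted p = 0.457). Hsf4, known from lens development, read 4.93, 5.19 and 4.90 in aged mice, against 4.67, 4.58 and 4.63 in young mice (difference 0.38, limma adjusted p = 0.496). Neither gene overlapped between the ages, and neither was called. In that list 1 gene lay above and 1 below without overlap (14.3% each), beside 6.69% and 6.93% over all probe sets. Of the 7 genes in that list 4 had means under the background guide.

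In the mitochondrion Hspd1, the HSP60 chaperonin, averaged 8.13 ± 0.066 in aged mice and 8.45 ± 0.081 in young mice (SD, n = 3 each, limma adjusted p = 0.519), and Hspa9, the mitochondrial HSP70, differed by -0.18. Of 9 mitochondrial chaperones 0 were called and 1 was lower at p under 0.05 before adjustment. The other small heat shock proteins had 0 called and 0 at p under 0.05 before adjustment, with a median of 0.062 over 8 genes, 3 of them under the background guide. Hspb11, which is also a ciliary transport protein, and Hspb7, a cardiac family member, had the smallest p there. Hspb11 differed by -0.27, and Hspb7 lay under the guide, so nothing is read from its difference.

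Other genes induced by heat went both ways, more of them lower. Most of them, Chordc1, Cacybp, Hspd1 and Bag3 included, also stand in the lists above, so these counts are not separate from those. Of 19 measured, 6 lay above 0 and 13 below, with a median of -0.12. Of these genes 0 were called, and 2 were higher and 4 lower at p under 0.05 before adjustment. Groups did not overlap in 2 genes above and 7 below (10.5% and 36.8%), beside 6.69% and 6.93% over all probe sets. The 4 lower were Chordc1, Cacybp, Hspd1 and Serpinh1, a collagen chaperone of the endoplasmic reticulum, which averaged 6.41 ± 0.13 in aged mice and 6.84 ± 0.050 in young mice (SD, n = 3 each, limma adjusted p = 0.389). The 2 higher were Bag3 and Hmox1, the haem-degrading enzyme, which differed by 0.84 with overlapping groups (limma adjusted p = 0.574). Hmox1 was named after its values were seen. The lower count was 1 without young replicate 1 and 2 without aged replicate 2 or young replicate 2, and the higher count was 0 without aged replicate 2, young replicate 2 or young replicate 3.

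**Figure D4:**
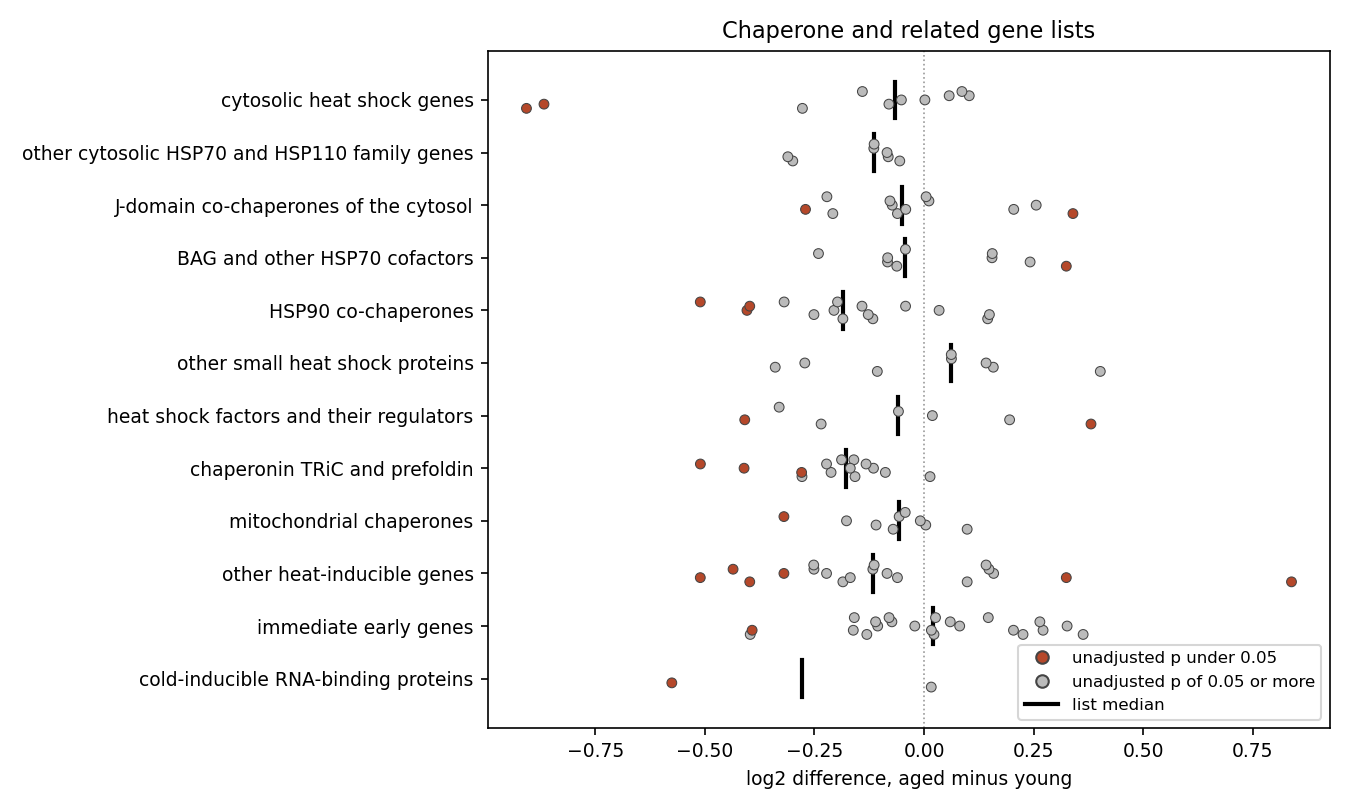
Log2 difference, aged minus young, of each gene (points) in the cytosolic heat shock set and in 11 related lists, with list medians (bars). Red points have an unadjusted p under 0.05, and no gene shown was called. A gene held by several lists is shown in each. Hspa1a and Hspa1b lie at -0.91 and -0.87, and the HSP90 co-chaperones and the TRiC and prefoldin genes have medians of -0.19 and -0.18.

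Genes that answer to tissue handling or temperature were set beside the HSP70 pair. Immediate early genes, induced within minutes of cell activation or dissection, had a median of 0.020 over 22 genes, 5 of them under the background guide, Fos and Fosb among these, with 0 called, 0 higher and 1 lower at p under 0.05 before adjustment. That gene was Btg2, a growth-restraining early gene, at 5.11 ± 0.10 in aged mice and 5.50 ± 0.13 in young mice, and Zfp36, which destabilises cytokine transcripts, differed by 0.36 (SD, n = 3 each, limma adjusted p = 0.478 and 0.670). The list mean ran from 4.58 to 4.68 in aged mice and from 4.49 to 4.67 in young mice. Rbm3, an RNA-binding protein induced by cooling, read 6.08, 5.81 and 5.93 in aged mice, against 6.90, 6.14 and 6.50 in young mice (difference -0.58, limma adjusted p = 0.521). Its aged values lay below the young ones without overlap, as did those of 6.93% of all probe sets. Leaving out 1 array moved the Rbm3 difference between -0.76 and -0.38, with limma unadjusted p between 0.00284 and 0.0546. Cirbp, the other cold-inducible gene, differed by 0.017. The part of handling and temperature in the Hspa1a and Hspa1b values was not tested.

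Marker lists of some other cell types leaned one way between the ages. Endothelial markers had 12 of 12 differences below 0, with list means of 4.78 to 4.89 in aged mice and 5.10 to 5.68 in young mice. Fibroblast markers had 9 of 9 below 0, with list means of 5.18 to 5.65 in aged mice and 5.66 to 6.74 in young mice. Mural cell markers had 7 of 8 below 0, with list means of 4.67 to 4.83 in aged mice and 5.01 to 5.63 in young mice. Macrophage markers had 10 of 13 above 0, with list means of 4.94 to 5.57 in aged mice and 4.45 to 4.90 in young mice. None of these markers was called by limma, and at p under 0.05 before adjustment there were 9 lower endothelial markers (75.0% of the list), 4 lower fibroblast markers (44.4%) and 2 lower mural markers (25.0%), beside 3.96% over all probe sets. Macrophage markers had 9 higher (69.2%) and 2 lower (15.4%), and B and plasma cell markers had 2 higher (28.6%), beside 3.82% higher over all probe sets. With 1 array left out the endothelial count ran from 9 to 11, that of higher macrophage markers from 6 to 8, of fibroblast markers from 2 to 5, of mural markers from 1 to 5 and of higher B and plasma cell markers from 0 to 4. Neuronal and glial markers had list means of 7.30, 5.26 and 6.45 in aged replicates 1 to 3. In young replicates 1 to 3 they were 6.37, 6.17 and 6.84. Aged replicate 1 had the highest of these means and, of the aged arrays, the highest Hspa1a. Aged replicate 3 had the lowest Hspa1a of all arrays, 5.65, with a marker mean above those of young replicates 1 and 2. Ependymal markers ran from 6.56 to 6.76 in aged mice and from 6.62 to 6.81 in young mice. Of 7 markers of B and plasma cells 5 lay under the background guide, and their list mean was 5.68 on aged replicate 3, against 3.70 and 3.71 on the other aged arrays and 3.23 to 3.45 in young mice. The part of these cell types in the Hspa1a and Hspa1b values was not tested.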

How the data were processed

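Total RNA of choroid plexus was hybridised to 6 arrays. Per the file headers, the deposited values are log2 levels of Brainarray probe sets, each standing for 1 Entrez gene, and the submitters' processing notes name RMA and limma 3.14.4. The array model is not given in the sources used here. The authors' deposited table also holds a signed fold score, a t score, p-values and q-values per the file headers, of which q-values are quoted. A second deposited value table holds the same log2 values rounded, within 0.005.

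All 25206 probe sets were fitted with limma 3.58.1 in R 4.3.3 (lmFit, eBayes; age group as the single term), p-values were adjusted by Benjamini-Hochberg, and no probe set was filtered. The fit was tested on simulated data. Errors are SDs, and intervals are at 95%. The number of arrays limits the precision. Members and lists were chosen with earlier results of these data known. Members were all to be named, and from each list the called genes or, with none called, the 2 with the smallest p. Lists were matched by deposited or current symbol (RefSeq, GRCm38.p6), and 23740 probe sets had a current symbol. Promoters were RefSeq's.

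Alternatives were the rounded table, quantile normalization once more, median centring, a filter on dim probe sets, a replicate block, weights per array, eBayes with a trend and robust variances, and leaving out each array. Columns of per-sample values left aside numbered 0.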

Additional observations from a re-analysis of the deposited data

How the results depend on the processing

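Over the 7 alternatives that kept all arrays, limma called 0 of the 10 members, and Hspa1a and Hspa1b stayed at p under 0.05 before adjustment, with differences of -0.92 to -0.79 and -0.88 to -0.82. Leaving out 1 array gave 0 to 1 members called lower (Hspa1a without aged replicate 1) and 0 called higher. Lower without overlap were 2 to 5 (5 without young replicate 3, 4 without aged replicate 1, where 14.8% and 11.9% of all probe sets were). Higher without overlap were 0 to 1, and nothing is read from this, since the share over all probe sets was not counted. The members' median moved between -0.12 and -0.0088. Called probe sets moved more: leaving out 1 array gave 0 to 27 higher and 0 to 25 lower. Lower calls were 8 with quantile normalization once more and with median centring, 12 among probe sets above the array median, 11 with trend and robust eBayes and 1 with the replicate block. Same-numbered arrays correlated at -0.023, 0.15 and -0.050 in their deviations from group means, and arrays with other numbers at -0.14 to 0.15. So few values cannot decide whether the replicate numbers pair the arrays, and no pairing is labelled. With the block 14 probe sets were higher, 0 members were called and Hspa1a had a limma adjusted p of 0.381.

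Signs turned in 14 of 401 pairs of gene and alternative, all for differences close to 0. Hspa8 was at -0.033 with quantile normalization once more, -0.0059 with median centring and -0.0086 with array weights, and ran from -0.071 to 0.062 with 1 array left out. With 1 array left out Hsf1 ran from -0.035 to 0.24, Hsp90aa1 from -0.0026 to 0.25, Hspb1 from -0.20 to 0.024, Hspb8 from -0.075 to 0.18 and Cirbp from -0.017 to 0.084. The cause was not tested. Values near background (Hsp90aa1) limit what a difference can show, and values among the brightest (Hspa8) may do so.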

Other observations

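The 5 probe sets whose profile over the 6 arrays was most like that of Hspa1a, among 12594 with means above the median of all probe sets, were Tgfb2, a ligand of the transforming growth factor family (Pearson r = 0.9996), Adrbk2, now named Grk3, a receptor kinase (0.996), Tulp3, a cilium trafficking protein (0.996), Prps2, a nucleotide synthesis enzyme (0.993), and Fam171a1 (0.991). All 5 share with Hspa1a a value on aged replicate 1 that lies between the other aged arrays and the young ones. That likeness follows from how they were picked and is no separate result. Tgfb2 read 9.46, 9.24 and 9.24 in aged mice, against 9.53, 9.55 and 9.56 in young mice, a difference of -0.23 where that of Hspa1a was -0.91. Of the ranked probe sets 65 had r over 0.95, and Hspa1b itself stood at 0.866. These values are a description of profiles on shared arrays and were not tested.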
